A study of Mus musculus with 6 samples.

Results

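The genes described here were 10 regulators of mRNA that act in cytoplasmic RNA granules or bind mRNA in the lens, other than Celf1 itself. They were Tdrd7, Caprin1, Caprin2, Rbm24, Rbm38, Stau1, Stau2, Carhsp1, Elavl1 and Qk. They were chosen by name, with earlier results of these data known, and all 10 were found by symbol among the 13931 genes of the deposited table. The lenses came from newborn mice, and 3 libraries were sequenced for the controls and 3 for Celf1cKO, with a pair of lenses pooled in each. Celf1 encodes an RNA-binding protein that acts on splicing, mRNA decay and translation. Celf1cKO mice carried 1 germline knockout allele (Celf1lacZKI), 1 Celf1 flox allele and Pax6GFPCre, which acts on the flox allele. This Cre is driven by a Pax6 lens enhancer that is active from the lens placode on and also in the pancreatic lineage. The study reports that part of the Celf1 transcripts in Celf1cKO lenses still held the floxed exon, so the loss of Celf1 was not complete. The labels give the controls as Celf1lacZKI/+, which would place the germline knockout allele in both groups, whereas the methods of the study name Celf1flox mice without Cre unless otherwise noted, so the control genotype was not settled. Both groups were on a mixed C57BL/6J and FVB background.

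The fate of an mRNA in the cytoplasm is set by proteins that bind it, often in its 3′UTR, and that gather with it in granules where it is stored, moved, translated or degraded. Lens fiber cells lose their nuclei and organelles as they mature and afterwards depend on mRNA made earlier, and mutations in TDRD7 cause cataract in humans and mice. The members fall into several families. Tdrd7 is a Tudor domain protein of RNA granules. Caprin1 and Caprin2 are granule-associated proteins, of which Caprin1 binds G3BP1. Rbm24 and Rbm38 are closely related proteins with 1 RNA recognition motif. Stau1 and Stau2, the Staufen proteins, bind double-stranded RNA and move mRNA. Carhsp1 has a cold shock domain, Elavl1 (HuR) binds AU-rich elements, and Qk is a STAR family protein that binds splicing and stability elements.

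The sites printed here show where the letters TGTTTGT (with U for T in the mRNA), a GU-rich heptamer of the kind that CELF1 binds, stood in the 3′UTRs of these genes. They were read on the transcribed strand of GRCm38, in the longest 3′UTR that GENCODE M21 gives a protein-coding transcript of the gene. Of the 10 genes, 5 held the heptamer, against 32.1% of 10298 expressed genes with a 3′UTR. For each of the 5, the match nearest to the stop codon follows, with the heptamer in capitals and 6 bases on either side.
Stau2, chr1:16343685-16343703, minus strand: ttttttTGTTTGTttctta
Caprin1, chr2:103765965-103765983, minus strand: tggtccTGTTTGTcattcc
Elavl1, chr8:4289447-4289465, minus strand: cacaagTGTTTGTcttagt
Qk, chr17:10209088-10209106, minus strand: acatgcTGTTTGTttagtc
Rbm24, chr13:46429846-46429864, plus strand: gtagtgTGTTTGTgctatc

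Caprin1, Elavl1 and Qk held 3 matches each, whereas Rbm24 and Stau2 held 1 each. The Stau2 match lies well inside the gene, which runs on to 16228674 on the minus strand. Transcripts of Stau2 with other 3′ ends may lack it, and their 3′UTRs were not searched. The remaining 5, Tdrd7, Caprin2, Rbm38, Carhsp1 and Stau1, held none in the window searched. A longer window holds more matches by its length alone. The 3′UTRs of the 10 genes had a median of 2043 bases, against 1283.5 bases for expressed genes, and that of Tdrd7 was only 245 bases long. Among the 5 members whose 3′UTR was among the longest of expressed genes (1973 bases or more), 4 held the heptamer, against 59.0% of all genes with such 3′UTRs. Among the 3 with 780 to 1972 bases, 1 held it (Rbm24), against 27.9%. A match is a run of letters and not a measured binding site.

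A pair of longer motifs were also searched on the transcribed strand, and matches were allowed to overlap. The GU-rich element of 11 bases, which is the heptamer with TTGT after it, was not found in the 10 windows and was present in 4.61% of expressed genes. A run of TG repeats over 11 bases was found in Qk only among the 10, against 8.67% of expressed genes. The repeat in Qk is shown because it was the longest GU-rich run found in these windows, with the whole run in capitals.
Qk, chr17:10204791-10204815, minus strand: TGTGTGTGTGTGTGTGTGTGTGTGT

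The depth was similar in the 6 libraries, with 40694454 to 44387151 reads on genes. Celf1 itself, given here as the check of the labels, stood at 9.95, 9.94 and 9.34 log2 CPM (CPM, the number of reads scaled to a common library size) in control libraries 1, 2 and 3, and at 8.93, 7.66 and 7.83 in the Celf1cKO libraries. All 3 Celf1cKO values were lower than all 3 control values, and Celf1cKO library 1 kept the most Celf1 mRNA. This library was also the nearest to the control mean for 7 of the 10 members, the exceptions being Rbm38, Elavl1 and Qk, for which library 3 was nearest. Over all expressed genes, library 1 was nearest for 55.3%. In whole lenses, fewer cells of a type and less mRNA per cell cannot be told apart.

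Levels of different genes were compared as CPM per kb of annotated exon. In control lenses, Tdrd7 had the highest level of the 10, at 537 ± 39.3 CPM per kb (mean ± SD, n = 3 here and below), and its mean over the 6 libraries ranked 49 of 13924 genes. Carhsp1 followed at 266 ± 36.4. Caprin2 (117 ± 9.63) and Rbm24 (111 ± 3.47) came next and did not differ beyond their spread. Rbm38 (29.7 ± 2.84) and Caprin1 (28.4 ± 1.82) likewise did not differ beyond their spread. Qk stood at 13.3 ± 2.08, Stau1 at 6.90 ± 0.20, Elavl1 at 5.47 ± 0.52 and Stau2 at 3.52 ± 0.21. On this scale the highest member was thus 152-fold above the lowest in the controls, with Tdrd7, Carhsp1, Caprin2 and Rbm24 well above the other 6. The order depends on the length used, which merged the exons of all transcripts and was 14.14 kb for Caprin2. Undivided by length, the control means were 2124 CPM for Tdrd7, 1658 for Caprin2, 761 for Carhsp1, 386 for Rbm24 and 290 for Caprin1.

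In Celf1cKO lenses, the same 4 genes were again the most abundant on the CPM per kb scale. Tdrd7 stood at 337 ± 40.2 and Carhsp1 at 201 ± 9.54. Rbm24, at 97.4 ± 9.49, stood above Caprin2, at 84.6 ± 11.0, in each of the 3 libraries, whereas it had been the lower in each control. The ranges of the levels overlapped between libraries. Undivided by length, Caprin2 stayed the higher in Celf1cKO lenses, at a mean of 1196 CPM against 340 for Rbm24. Caprin1 (33.6 ± 6.17) stood above Rbm38 (21.3 ± 1.19), whereas the pair had been level in the controls. Stau1 (6.72 ± 0.038), Elavl1 (6.17 ± 0.18) and Stau2 (5.29 ± 0.83) remained the lowest, with Stau2 closer to the other two than before.

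**Figure D1:**
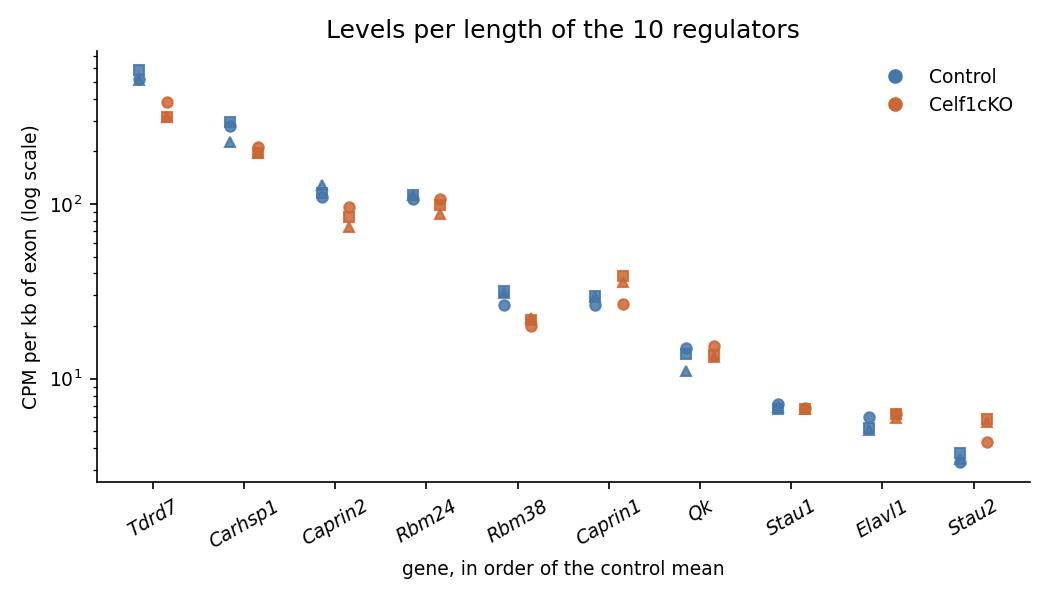
Level of each of the 10 genes as CPM per kb of annotated exon on a log axis, with a point for each library. Tdrd7 lies highest in both groups, with a mean of 537 in controls and 337 in Celf1cKO lenses, and Stau2 lowest, with means of 3.52 and 5.29.

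The comparison of the groups asked which of these regulators had altered mRNA levels in Celf1cKO lenses. Tdrd7, with a log2 fold-change of -0.68, was reduced and was the 1 of the 10 genes to pass all cut-offs, which were an adjusted p-value under 0.05 in limma, a rise or fall of more than 0.58 on the log2 scale and a mean log2 CPM above 1. All 10 genes passed the expression cut-off. Over the whole table, 7.25% of genes were called, 4.69% as elevated and 2.56% as reduced, so 1 call in 10 genes was near the background. By the adjusted p-value alone, Tdrd7 and Rbm38 were reduced and Stau2 was elevated, 3 of 10 against 11.9% of all genes (7.85% elevated and 4.03% reduced). Of the 10529 genes that passed the expression cut-off, 1530 had an adjusted p under 0.05 in limma.

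With the deposited scaling, the libraries of the groups did not overlap for 6 of the 10 genes, against 36.5% of all genes. In 5 of these, namely Tdrd7, Caprin2, Rbm24, Rbm38 and Carhsp1, the highest Celf1cKO library was below the lowest control, which held for 17% of all genes. For Stau2 the Celf1cKO libraries were all above the controls, which held for 19.5%. The groups overlapped for Caprin1, Stau1, Elavl1 and Qk. The median log2 fold-change of the 10 genes was -0.11, against 0.01 for expressed genes and -0.04 for all genes. The median size was 0.31, against 0.26 for expressed genes.

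**Figure D2:**
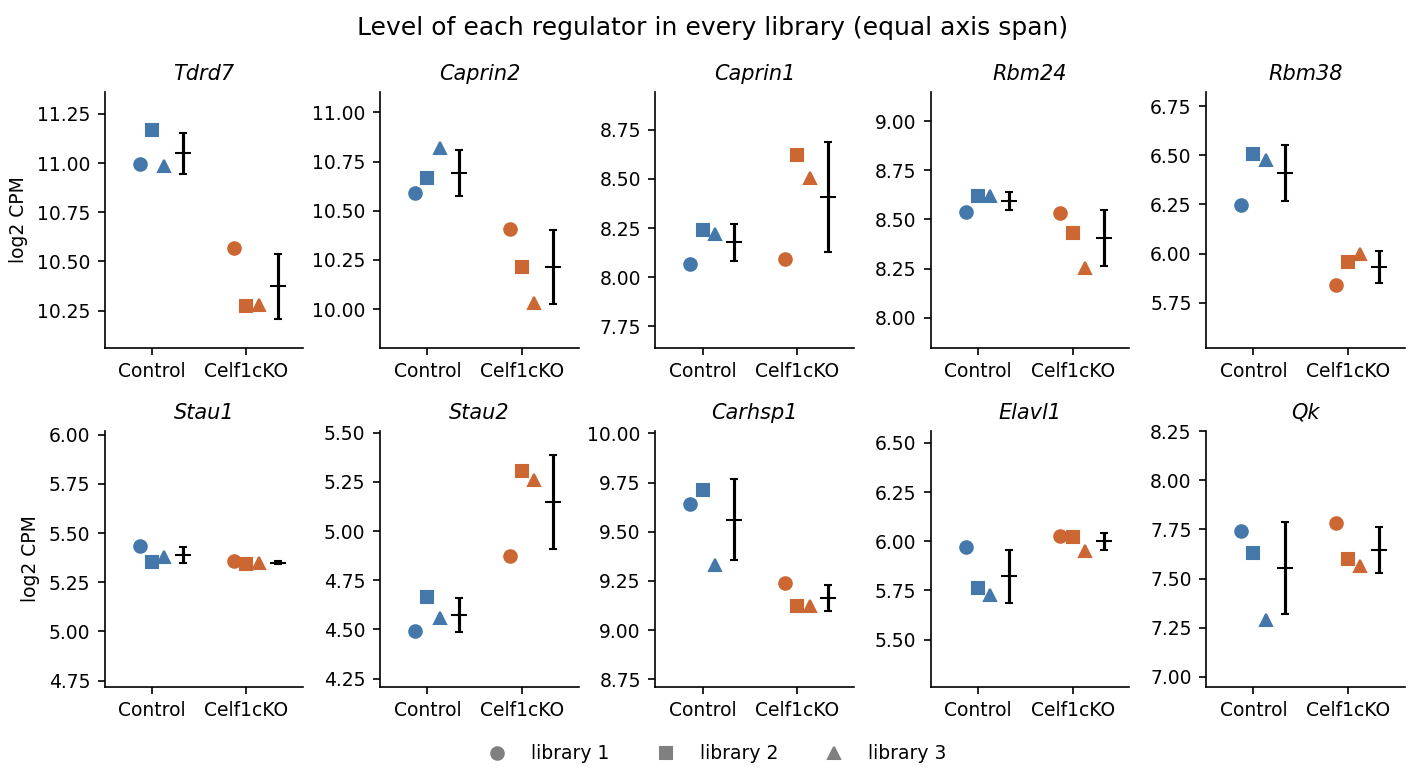
Level of each of the 10 genes in log2 CPM in every library, with symbols for the library number and a mean with SD beside each group of 3. The groups are separate for Tdrd7, Caprin2, Rbm24, Rbm38, Carhsp1 and Stau2 and overlap for Caprin1, Stau1, Elavl1 and Qk.

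Tdrd7, which lies on chr4:45965334-46034761 in GRCm38, stood at 11.00, 11.17 and 10.98 log2 CPM in control libraries 1, 2 and 3, and at 10.57, 10.27 and 10.28 in the Celf1cKO libraries. The Celf1cKO libraries were thus all below the controls, with library 1 the highest of them. The level fell by 37.5% from 11.05 ± 0.10 to 10.37 ± 0.17 log2 CPM. The values rested on 78263 to 85624 reads in a control library and 60191 to 65108 in a Celf1cKO library. The log2 fold-change was -0.68 with a SE of 0.12 and a 95% interval of -0.96 to -0.40 (limma, adjusted p = 0.0174), and a fit blocked on the replicate number gave an adjusted p of 0.0273. The adjusted p rose above the threshold when any of 4 libraries was left out, to 0.0515 without control 1, 0.0677 without control 2, 0.0605 without Celf1cKO 2 and 0.0969 without Celf1cKO 3, while the log2 fold-change stayed between -0.77 and -0.62. With libraries scaled by their total reads alone, which moved the median log2 fold-change of expressed genes from 0.01 to 0.23, it was -0.45 (limma, adjusted p = 0.0156), short of the fold-change cut-off.

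The genes whose pattern over the 6 libraries was most like that of Tdrd7, among 10528 expressed genes, were Crybb1 (Pearson's r = 0.998), Ing2 (r = 0.998) and Cryge (r = 0.998). Crybb1 and Cryge encode crystallins, the main soluble proteins of lens fiber cells, and Ing2 encodes a chromatin protein. The 6 points share the group difference and the scaling of the libraries. Summed markers of lens fiber cells moved the same way as Tdrd7: the 6 fiber markers analysed summed to 24581 to 34352 CPM in controls and 19502 to 20755 in Celf1cKO lenses, and Bfsp1, Gja3 and Dnase2b were called as reduced. Markers of lens epithelium, 4 genes, summed to 278 to 332 CPM and 50.3 to 217 CPM, with Foxe3 and Pdgfra called as reduced. Blood vessel markers, 4 genes, summed to 71.0 to 86.0 CPM in controls and 19.9 to 83.2 CPM in Celf1cKO lenses. Other lists were low in all libraries, with sums of up to 16.7 CPM for 3 retinal, 5.49 CPM for 3 macrophage and 20.7 CPM for 4 pigment cell markers. Ttn, the muscle marker analysed, reached 0.574 CPM in controls and 12.1 CPM in Celf1cKO lenses. Alas2, the 1 red blood cell marker analysed of 5, reached 1.35 CPM in controls and 0.489 CPM in Celf1cKO lenses. The 5 markers listed for cornea and skin epithelium were not analysed here, so those tissues could not be judged. The part of these shifts in the changes of Tdrd7 and of the other regulators was not tested.

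The Caprin genes differed in direction. Caprin2, on chr6:148842492-148896237, stood at 10.59, 10.67 and 10.82 log2 CPM in the controls and at 10.41, 10.21 and 10.03 in the Celf1cKO libraries. The groups were separate, with a log2 fold-change of -0.48 (SE 0.13, 95% interval -0.77 to -0.18) that did not pass the test (limma, adjusted p = 0.0504). Caprin1, on chr2:103762941-103797649, stood at 8.07, 8.24 and 8.22 in the controls and at 8.09, 8.62 and 8.50 in the Celf1cKO libraries. Celf1cKO library 1 lay at the control level and the other two above it, and the log2 fold-change of 0.23 had a 95% interval of -0.10 to 0.56 (limma, adjusted p = 0.315). Without Celf1cKO library 1 the log2 fold-change of Caprin1 was 0.39 and its adjusted p 0.0300, still short of the fold-change cut-off, and that of Caprin2 was -0.57 with an adjusted p of 0.0185. Without Celf1cKO library 2, that of Caprin1 was 0.12 (adjusted p = 0.675). With total-read scaling, Caprin1 stood at 0.46 (adjusted p = 0.0715) and Caprin2 at -0.25 (adjusted p = 0.165), while median centring gave Caprin2 an adjusted p of 0.0418. Over the 11 alternatives that kept all libraries, the adjusted p of Caprin2 in limma ranged from 0.0391 to 0.165, on both sides of the threshold.

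The related proteins Rbm24 and Rbm38 both had negative fold-changes with the deposited scaling, whereas Rbm24 was above 0 with total-read scaling. Rbm38, on chr2:173020498-173034734, binds and stabilises the mRNA of the cell cycle inhibitor p21. It stood at 6.25, 6.51 and 6.48 log2 CPM in the controls and at 5.84, 5.96 and 6.00 in the Celf1cKO libraries. Every Celf1cKO library was lower, by a log2 fold-change of -0.48 (SE 0.10, 95% interval -0.71 to -0.24; limma, adjusted p = 0.0268), which was under the fold-change cut-off, and its adjusted p stayed under 0.05 without control 1 (0.0385) or Celf1cKO 1 (0.0316) but rose to 0.0772 to 0.10 without any other library. It was 0.0748 with no variance trend, and with total-read scaling the log2 fold-change of Rbm38 was -0.25 (adjusted p = 0.127). Rbm38 overlaps a pair of annotated transcripts on the opposite strand, and the strand setting of the counting was not given in the sources used here.

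Rbm24, on chr13:46418434-46431095, is needed for eye development in vertebrates. It stood at 8.54, 8.62 and 8.62 in the controls and at 8.53, 8.43 and 8.25 in the Celf1cKO libraries. The groups were separated by only 0.006 on the log2 scale. Its log2 fold-change of -0.19 (95% interval -0.41 to 0.03) did not pass the test (limma, adjusted p = 0.228), and it was 0.04 with libraries scaled by total reads.

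The Staufen genes differed from each other. Stau2, on chr1:16228674-16520112, stood at 4.49, 4.66 and 4.56 log2 CPM in the controls and at 4.87, 5.31 and 5.26 in the Celf1cKO libraries. All 3 Celf1cKO libraries were higher, with library 1 the closest to the controls. This corresponded to 860 to 940 reads in a control library and 1255 to 1921 in a Celf1cKO library. The log2 fold-change of 0.57 (SE 0.14, 95% interval 0.25 to 0.90; limma, adjusted p = 0.0389) lay just under the cut-off of 0.58. It passed with total-read scaling, at 0.80, and without Celf1cKO library 1, at 0.71 with an adjusted p of 0.0065. Leaving out any other library gave adjusted p-values from 0.0972 to 0.157, and dropping the variance trend gave 0.0821. A pair of antisense transcripts overlap Stau2 on the opposite strand.

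Stau1, on chr2:166947549-166996299, is the widely expressed member of the family and is known for its role in mRNA decay. It stood at 5.43, 5.35 and 5.38 log2 CPM in the controls and at 5.36, 5.34 and 5.35 in the Celf1cKO libraries. The groups overlapped, and the spread within each was small, with an SD of 0.04 and 0.01. The log2 fold-change was -0.04 with a 95% interval of -0.23 to 0.15 (limma, adjusted p = 0.786), and 0.19 with total-read scaling.

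**Figure D3:**
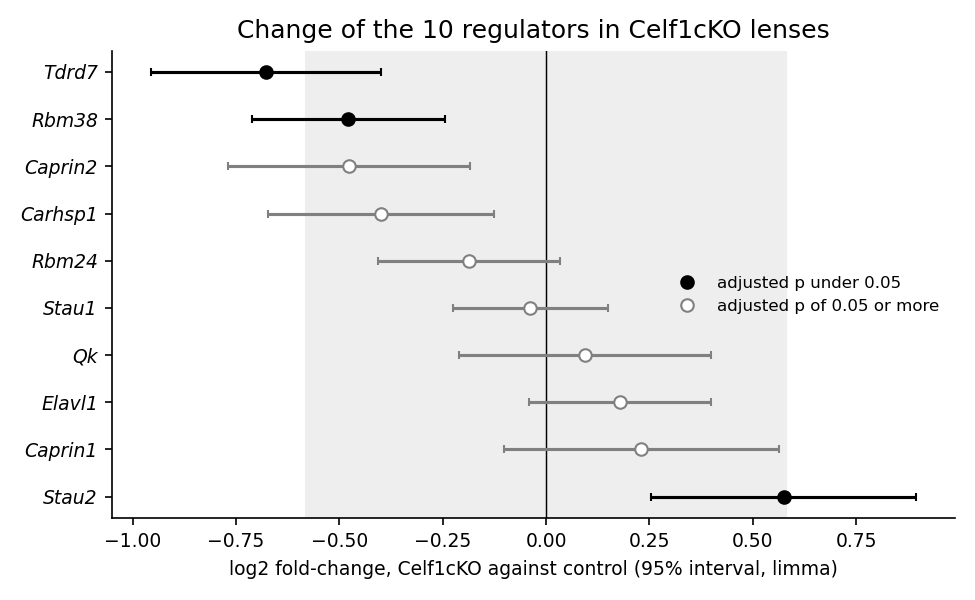
Log2 fold-change of each of the 10 genes in Celf1cKO against control lenses, with the 95% interval from limma, ordered by size, where the grey band marks changes under 0.58 in either direction. The adjusted p-value was under 0.05 for Tdrd7 (-0.68), Rbm38 (-0.48) and Stau2 (0.57), of which Tdrd7 alone lies outside the band.

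Carhsp1, on chr16:8658580-8672155, binds and stabilises the mRNA of tumour necrosis factor. It stood at 9.64, 9.72 and 9.33 log2 CPM in the controls and at 9.24, 9.12 and 9.12 in the Celf1cKO libraries. The lowest control, library 3, was still above the highest Celf1cKO library. The log2 fold-change of -0.40 (SE 0.12, 95% interval -0.67 to -0.12) did not pass the test (limma, adjusted p = 0.0680). It lay under the threshold without control library 3, with an adjusted p of 0.0408 and a log2 fold-change of -0.52, and also with median centring (0.0485), quantile normalization (0.0485) or crystallin reads left out of the scaling (0.0389). With total-read scaling the log2 fold-change of Carhsp1 was -0.17 (adjusted p = 0.231).

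Elavl1, on chr8:4285382-4325413, stood at 5.97, 5.76 and 5.73 log2 CPM in the controls and at 6.03, 6.02 and 5.95 in the Celf1cKO libraries. Control library 1 lay within the range of the Celf1cKO libraries. The log2 fold-change was 0.18 with a 95% interval of -0.04 to 0.40 (limma, adjusted p = 0.248). It depended on the scaling, at 0.40 (adjusted p = 0.0254) with total reads and 0.09 (adjusted p = 0.555) with quantile normalization. Exons of Elavl1 overlap those of Ccl25 on the opposite strand.

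Qk, on chr17:10202601-10319854, stood at 7.74, 7.63 and 7.29 log2 CPM in the controls and at 7.78, 7.60 and 7.56 in the Celf1cKO libraries. The groups overlapped, with control library 3 the lowest of the 6. The log2 fold-change was 0.09 with a 95% interval of -0.21 to 0.40 (limma, adjusted p = 0.669), with -0.04 without control library 3 and 0.32 (adjusted p = 0.0857) with total-read scaling.

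Because no scaling of a library can change the ratio of 2 genes within it, the levels of related genes were also compared within libraries, on the CPM per kb scale. This comparison was added after the values had been seen. The ratio of Stau2 to Stau1 was 0.467, 0.557 and 0.510 in control libraries 1, 2 and 3, and 0.641, 0.877 and 0.845 in the Celf1cKO libraries. Stau2 mRNA was thus the scarcer in all 6 libraries, and the ratio was higher in every Celf1cKO library. The log2 ratio differed by 0.61 between the groups, and by 0.53 to 0.76 with any 1 library left out. The ratio of Caprin2 to Caprin1 was 4.15, 3.88 and 4.38 in the controls and 3.59, 2.17 and 2.08 in the Celf1cKO libraries. It was lower in every Celf1cKO library, by 0.71 on the log2 scale, with library 1 near the controls. The size of each ratio rests on the exon lengths used, but the log2 difference between the groups does not.

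The exact two-sided permutation test gave p = 0.1 for each of these ratios (0.15 after adjustment over the 3 ratios compared), the smallest that 3 libraries against 3 allow, and so could not reach the threshold. The ratio of Rbm24 to Rbm38 was 4.02, 3.55 and 3.63 in the controls and 5.31, 4.56 and 3.92 in the Celf1cKO libraries. Here the groups overlapped, with a log2 difference of 0.29 (exact permutation p = 0.2, also after adjustment).

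**Figure D4:**
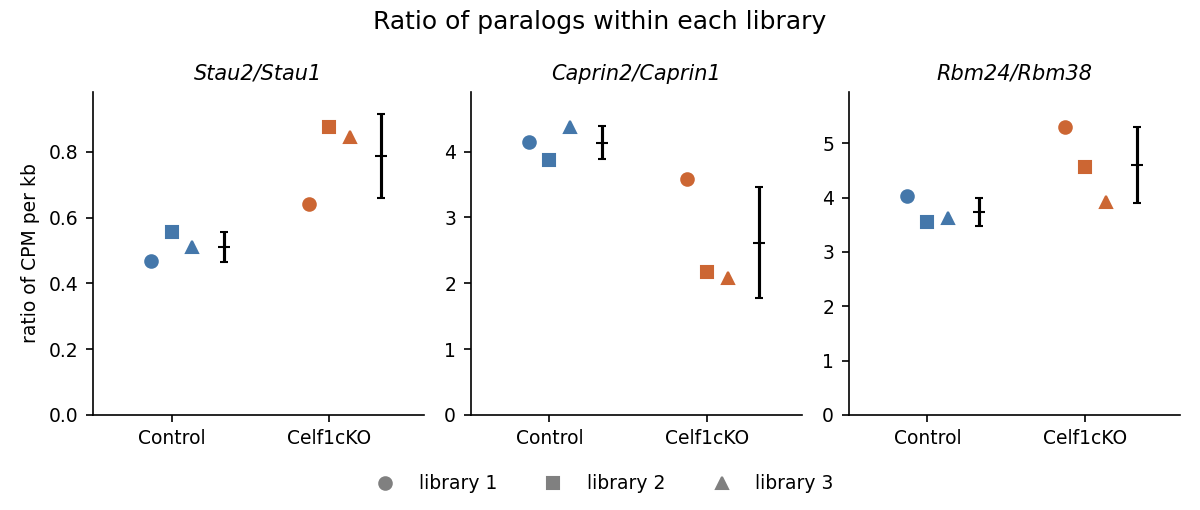
Ratio of the CPM per kb of Stau2 to Stau1, Caprin2 to Caprin1 and Rbm24 to Rbm38 within each library, with the mean and SD of each group of 3 as bars and axes that start at 0. The Stau2 to Stau1 ratio is higher and the Caprin2 to Caprin1 ratio lower in every Celf1cKO library, whereas the Rbm24 to Rbm38 groups overlap.

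Other genes of RNA granules and mRNA binding were taken from a list of 80, of which 73 were analysed here and 64 passed the expression cut-off. Of the 73, 5 were elevated and 2 reduced, a share of 9.59% against 7.25% of all genes, and the median log2 fold-change was -0.06. By the adjusted p-value alone, 8 of the 73 were elevated and 4 reduced, against 7.85% and 4.03% of all genes. Fmr1, the fragile X protein gene and a granule component, had the largest increase of the called genes, at 0.81 on the log2 scale (adjusted p = 0.0130). It stood at 5.18, 4.79 and 4.94 log2 CPM in the controls and at 5.69, 5.86 and 5.78 in the Celf1cKO libraries, so the groups were separate. The other elevated genes were Prkra (0.62), an activator of the kinase PKR, Pcbp2 (0.60), a poly(C)-binding protein, Msi2 (0.60), a Musashi translational regulator, and Ddx3x (0.59), an RNA helicase of stress granules. Pcbp2, Msi2 and Ddx3x fell under the fold-change cut-off when libraries were centred on the median of expressed genes, which left 2 elevated and 2 reduced, whereas total-read scaling gave 12 elevated and 2 reduced. Without control library 2 or Celf1cKO library 3, limma called 0 of the 73 genes, and 1 gene of the whole table. In these fits 29 and 22 of the 73 had an unadjusted p under 0.05, but the share of all genes at that threshold was not counted.

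Igf2bp2, a protein of transport granules, was reduced with a log2 fold-change of -0.93 (limma, adjusted p = 0.0127). It stood at 6.65, 6.79 and 6.47 log2 CPM in the controls and at 5.95, 5.52 and 5.64 in the Celf1cKO libraries, again without overlap. Elavl4 (HuD), a neuronal relative of Elavl1, was reduced with a log2 fold-change of -1.86 (limma, adjusted p = 0.0269), from 149 to 260 reads in a control library to 44 to 96 in a Celf1cKO library. The other Hu genes did not pass the test. Elavl3 was read 5 to 35 times in a control library and 56 to 83 times in a Celf1cKO library, below the expression cut-off, and had an adjusted p of 0.0612. Elavl2 was read 13 to 33 times in any library. Retinal markers, 3 genes, summed to 0.726 to 16.7 CPM in controls and 1.23 to 9.18 in Celf1cKO lenses, and their part in the Elavl4 and Elavl3 values was not tested.

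Of the partners of Caprin1, G3bp1 had a log2 fold-change of 0.46 (limma, adjusted p = 0.0258), under the fold-change cut-off, and G3bp2 one of 0.01 (adjusted p = 0.925). Usp10 was not analysed here. Csdc2, the relative of Carhsp1, stood at -0.27 (adjusted p = 0.303). By role, the calls fell to 2 of 13 granule scaffolds, 1 of 6 transport proteins, 2 of 12 binders of AU-rich or C-rich elements, 1 of 8 translational regulators and 1 of 8 double-stranded RNA-binding proteins. Against 7.25% of all genes called, sets of this size would hold few calls or none, and nothing particular to a role is read from these counts. The 9 Tudor proteins, 6 cold shock proteins, 7 further proteins with RNA recognition motifs and 4 STAR proteins had no call in limma. Of them, 2, 3, 2 and 2 had an unadjusted p-value under 0.05 in limma. The share of all genes at that unadjusted threshold was not counted, so nothing about these roles is read from it.

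**Figure D5:**
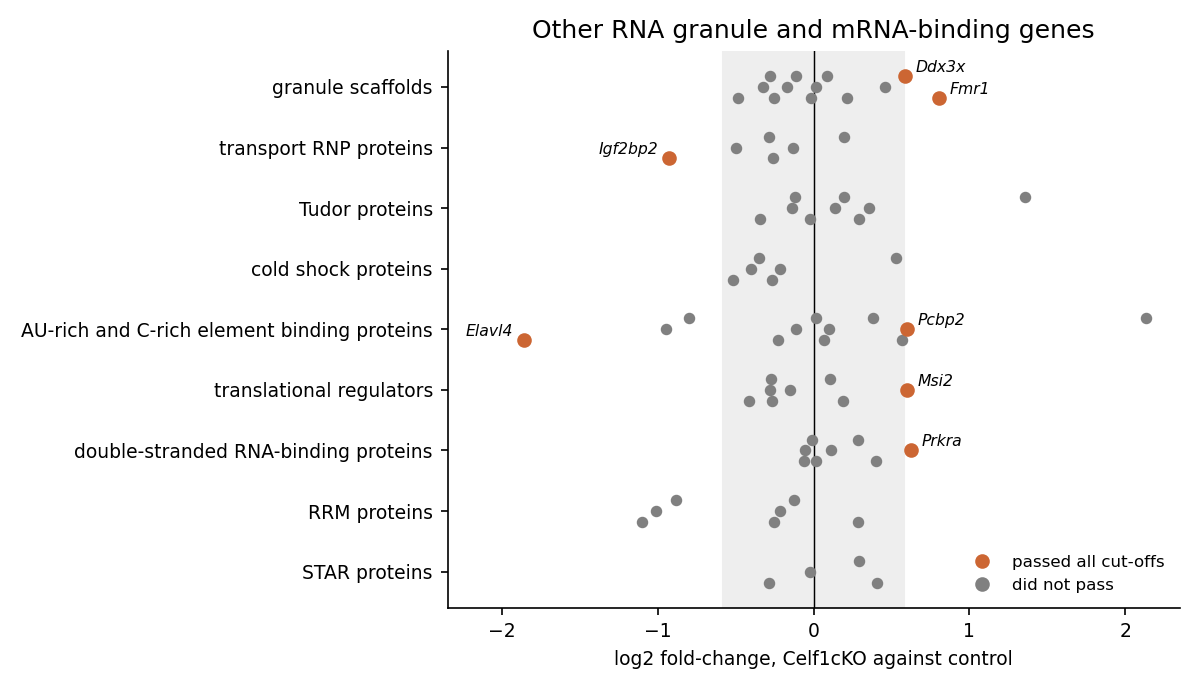
Log2 fold-change in Celf1cKO against control lenses of 73 other RNA granule and mRNA-binding genes, with 1 point a gene in rows by role and the called genes named. Of these, 5 lie above 0.58 and 2 below the grey band, and points outside the band that are grey did not pass the adjusted p-value or the expression cut-off.

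Of 10 mRNAs linked to single members by earlier work, 9 were analysed here and 1 was called, near the 7.25% of all genes. Cdkn1a, which encodes p21 and whose mRNA Rbm38 binds, was elevated with a log2 fold-change of 5.42 (limma, adjusted p = 0.00888), from 22 to 28 reads in a control library to 596 to 3198 in a Celf1cKO library, while Rbm38 itself was lower. Its adjusted p was 0.0512 without control library 2 and 0.0607 without Celf1cKO library 3. Hspb1 and Crybb3, a small heat shock protein and a crystallin linked to Tdrd7, had log2 fold-changes of -0.51 (adjusted p = 0.121) and -0.50 (adjusted p = 0.162). Hspb1 overlapped between groups, and Crybb3 did not. For Rbm24, the eye transcription factors Pax6 and Lhx2 had values of -0.37 (adjusted p = 0.213) and -0.08 (adjusted p = 0.978), and Sox2 was not analysed here. Trp53 (-0.18, adjusted p = 0.480), linked to Rbm38, Arf1 (0.06, adjusted p = 0.720), linked to Stau1, and Mbp (-0.82, adjusted p = 0.298) and Cdkn1b (-0.20, adjusted p = 0.408), linked to Qk, did not pass the test.

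Of the 5 genes that held the heptamer, Stau2, Caprin1, Elavl1 and Qk had positive fold-changes, except that Qk was -0.04 without control library 3. Rbm24 had a negative one. Stau2 was the 1 of the 5 with an adjusted p under 0.05 in limma, and its match lay well inside the gene. The 5 genes without the heptamer, namely Tdrd7, Caprin2, Rbm38, Carhsp1 and Stau1, had negative fold-changes, except that Stau1 (0.19), like Rbm24 (0.04), was above 0 with total-read scaling. Over all expressed genes with a 3′UTR, the median log2 fold-change was 0.08 with the heptamer and -0.01 without it, and 0.08 and -0.04 among the longest 3′UTRs. These are descriptions with no test, since genes with and without the letters differ in other ways.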

How the data were processed

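RNA was sequenced from 3 control and 3 Celf1cKO libraries of newborn mouse lenses, grouped by their labels. The authors aligned the reads to GRCm38.p6 with STAR 2.7.8a, counted them per gene with featureCounts 2.0.0, kept genes above a low CPM threshold and normalised with edgeR. The deposited values are log2 CPM per library, with a prior count added by the authors, for 13931 genes. The authors' fold-changes, average levels, F statistics and p-values stand in the same table and were not used, and 0 columns of single libraries were left out.

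The number of reads behind each value was recovered from the spacing of low values, and 100% came out whole within 0.1 read. They gave 40694454 to 44387151 reads per library, and a level of 3 reads equals 0.0609 to 0.0807 CPM. The deposited scaling set effective library sizes to 0.887 to 0.964 of these totals in controls and 1.055 to 1.115 in Celf1cKO libraries.

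Groups were compared with limma 3.58.1 in R 4.3.3 on the deposited log2 CPM values, with the prior variance following expression (3.40 prior degrees of freedom) and no block, with Benjamini-Hochberg adjustment over 13931 genes. A gene was called if it had an adjusted p under 0.05, rose or fell by more than 0.58 on the log2 scale and had a mean log2 CPM over the 6 libraries above 1, which 10529 genes passed. The model was tested on simulated data. Exon lengths, positions and 3′UTRs came from GENCODE M21, in which 13928 gene identifiers were found. The exons of all transcripts of a gene were merged for its length.

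The labels share replicate numbers between groups. Deviations of same-numbered libraries from their group means correlated at 0.33, 0.42 and 0.33 over expressed genes, against -0.35 to 0.02 for other pairs. Deviations from the mean of 3 libraries are tied to each other, so these correlations do not settle a pairing. The labels name none, so the main fit had no block and a fit with a block was run beside it. No batch is given in the sources used here.

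The members and lists were chosen with earlier results of these data known. All members were named, with Celf1, all mRNAs linked to members, up to 6 called genes per direction of the wider list by size, relatives of members, the Caprin1 partners, and for each called member the 3 genes with the most similar pattern. Genes named outside this rule, such as the called marker genes, were chosen after their values were seen. Alternatives were the block, other variance models, log2(CPM + 1), other scalings, limma voom on the recovered reads with the authors' scaling in place of TMM, a fit of expressed genes only, no fold-change threshold and each library left out in turn. Single values were compared by exact permutation. Python 3.11.15, pandas 2.3.3, numpy 2.4.6, scipy 1.17.1 and matplotlib 3.10.9 were used.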

Additional observations from a re-analysis of the deposited data

How the results depend on the processing

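With a block for the replicate number, 1 of the 10 regulators was called, as without it, as were 8 genes of the wider list against 7 and 1 of the linked mRNAs, and Tdrd7 kept its call (-0.68, adjusted p 0.0273). The block changed no other call among the 10 regulators. With it, limma gave adjusted p-values of 0.0218 for Rbm38, 0.0255 for Stau2, 0.0555 for Carhsp1 and 0.0710 for Caprin2. Over the table, the fit with the block gave 1255 calls against 1010 without it.

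The count of regulators called was 0 with no variance trend and 0 with quantile normalization, where limma gave 5 and 6 regulators an unadjusted p under 0.05, and it was 3 with no fold-change threshold. It ranged from 0 to 2 with 1 library left out. It was 0 without control 1, control 2, Celf1cKO 2 or Celf1cKO 3, with 5 or 6 regulators at an unadjusted p under 0.05, and limma voom on all libraries called 1. In limma, Tdrd7 had an adjusted p of 0.0509 with no variance trend. Its log2 fold-change was -0.53 with quantile normalization (adjusted p = 0.00923) and -0.45 with total reads (adjusted p = 0.0156). In the latter 2 settings it thus lost its call by the fold-change cut-off alone. With total reads, Stau2 was called instead. The wider list had 7 calls, with 4 under no variance trend, 4 with libraries centred on the median, 14 with total reads and 12 with no fold-change threshold. It ranged from 0 to 10 with 1 library left out and the linked mRNAs from 0 to 1, where the 0 values came without control 2 or without Celf1cKO 3. Without either of these, the whole table held 1 call. There limma gave 29 and 22 genes of the wider list and 2 and 1 linked mRNAs an unadjusted p under 0.05. The share of all genes under that unadjusted threshold was not counted, so nothing about these genes is read from such counts. Over the table the calls numbered 1010, against 412 with no variance trend, 1846 with total reads and 1530 with no fold-change threshold.

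Directions turned for Rbm24 (0.040) and Stau1 (0.19) with total reads, and for Qk, which ranged from -0.038 to 0.19 with 1 library left out. Among the 3 ratios of related genes none turned with any library left out. The cause of these shifts was not tested. With 3 libraries a group, of a single age and without a settled control genotype, changes much under the cut-off were poorly resolved for genes such as Qk and Caprin1, whose spread in 1 group was over 0.2 on the log2 scale.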
